A study of Homo sapiens with 6 samples.

Results

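The lysosome and autophagy genes described here are 43 genes picked by name from the 58174 genes of an mRNA-seq table. They comprise 3 lysosomal membrane proteins, 17 lysosomal hydrolases and their cofactors, the 3 MiT/TFE factors MITF, TFE3 and TFEB, 9 genes of autophagy initiation and nucleation, 5 genes of ATG8 conjugation, and 5 ATG8 family genes with the cargo receptor SQSTM1. The list follows gene function, and it was drawn up with earlier results of these data known. The established pediatric GBM (glioblastoma) line KNS42 was transfected either with a control siRNA (siC, 3 libraries) or with siRNAs directed against MSI1 (siMSI1, 3 libraries), and polyadenylated RNA was sequenced 72 h later. All 6 libraries therefore come from the same line and the same time point, and they differ by the siRNA alone as far as the labels state. Whether the libraries of a group came from separate cultures is not stated, so p-values measure the spread between these libraries, which may be technical. Values are FPKM, reads per kilobase of the length given for the gene, scaled to the reads of the library. This length need not be that of the mRNA present, so levels of different genes compare only roughly. The reads on genes numbered 15018417, 18024080 and 14448513 in siC replicates 1 to 3 and 14379126, 13087025 and 14700593 in siMSI1 replicates 1 to 3.

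Lysosomes are acidic compartments in which hydrolases degrade proteins, lipids and sugar chains delivered by endocytosis or by autophagy. In autophagy, the ULK1 kinase complex and the lipid kinase complex around Beclin 1 start a membrane sheet, WIPI proteins bind the lipid made there, and an enzyme cascade couples ATG8 proteins to the growing membrane, which then closes and fuses with a lysosome. MITF, TFE3 and TFEB are related transcription factors that bind E-boxes in promoters of lysosomal and autophagy genes and are held back by TORC1 when nutrients are plentiful. MSI1 (Musashi-1) is an RNA-binding protein of neural stem and glioma cells.

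MSI1, the target of the siRNAs, was measured first. It stood at 63.7, 61.9 and 66.9 FPKM in siC replicates 1 to 3 and at 12.1, 12.3 and 11.2 FPKM in siMSI1 replicates 1 to 3. Every siMSI1 library was far below every siC library, with a mean of 18.5% of the siC mean and a log2 fold change of -2.43 (SE 0.067, limma with Benjamini-Hochberg adjustment, adjusted p = 8.71e-06). Fold changes here and below are those of siMSI1 over siC on the scale of log2(FPKM + 0.1), which understates the change of low genes, and a change is called at an adjusted p of at most 0.01 over the 15069 genes tested, those that averaged 0.5 FPKM or more in the 6 libraries. An exact permutation test of 3 against 3 libraries cannot give a two-sided p below 0.1, so single values were tested only in the fit over all genes.

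Upon MSI1 knockdown, a minority of the lysosome and autophagy genes changed, in either direction. Of the 43 genes, 41 passed the filter on low values, and 8 of these were called, which is 19.5% beside 11% of all tested genes. The 5 genes that fell were the hydrolases and cofactors CTSK, GUSB, CTSA and NPC2 and the transcription factor MITF, 12.2% beside 5.83% of all tested genes called lower. The 3 genes that rose were WIPI1, ATG7 and GABARAPL1, 7.32% beside 5.15% called higher. By sign alone, 24 of the 41 log2 fold changes were below 0 and 17 above 0. Their median was -0.11, while that of all tested genes was 0.00. For 21 genes (51.2%) the 3 libraries of siMSI1 did not overlap with those of siC, beside 42.8% of all tested genes. A further 9 genes had an adjusted p above 0.01 and at most 0.05. They were LAMP1, CTSL, ATG14, ATG2A, ULK1 and GABARAPL2 with values below 0 and CTSD, TFE3 and ATG12 with values above 0. At an adjusted p of at most 0.05, 11 of the 41 genes were thus lower and 6 higher. Calls over all 15069 tested genes rose as well at that threshold, from 1655 to 3787, so adjusted p-values in this range were not particular to these genes. The cathepsin CTSZ, with 3 to 16 reads per library, and the kinase ULK2, with 6 to 23 reads, did not pass the filter and were not tested.

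**Figure D1:**
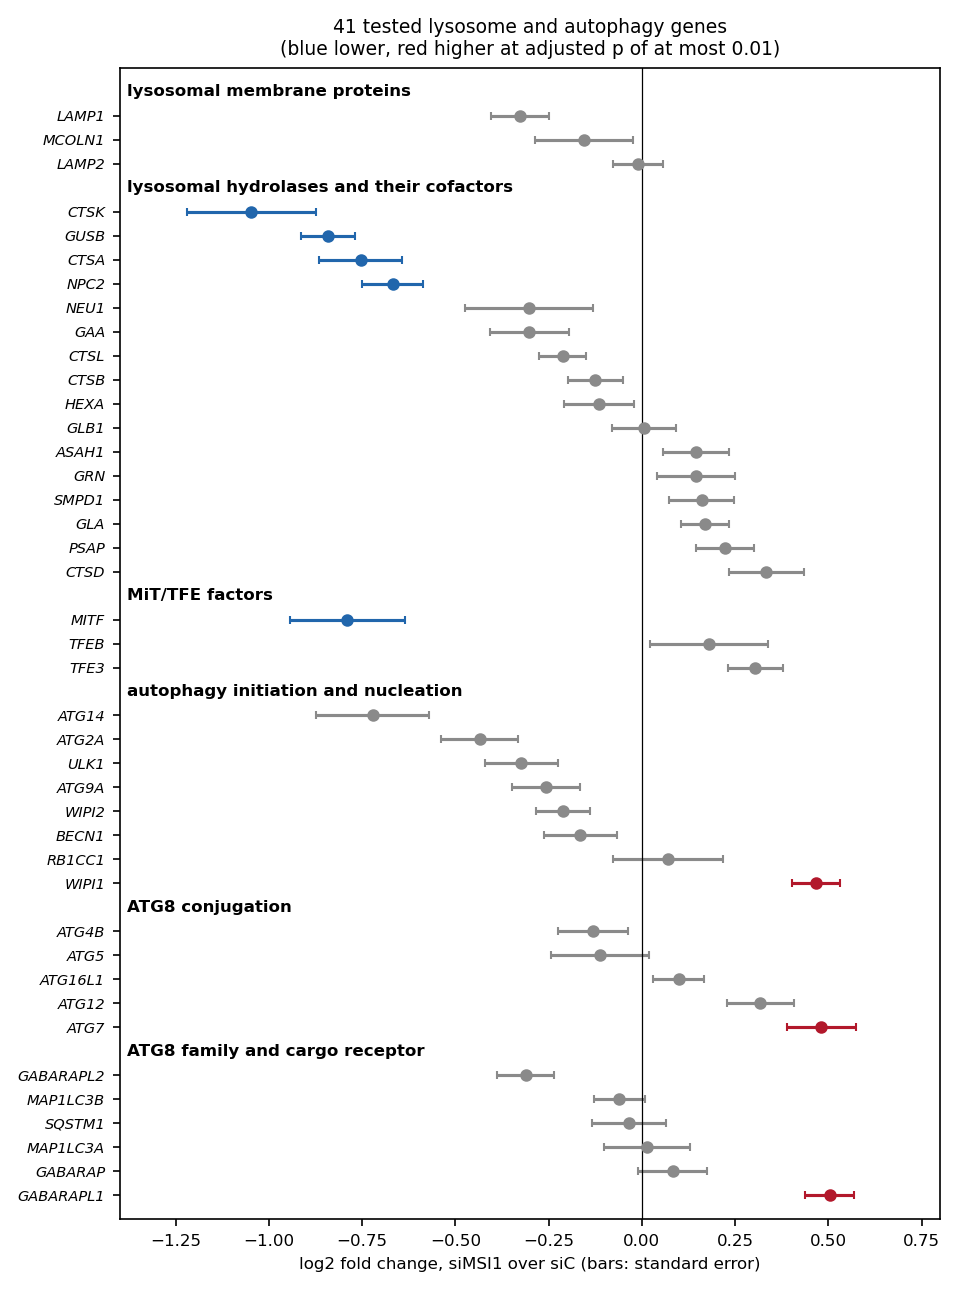
Log2 fold change of siMSI1 over siC (horizontal axis) for the 41 tested genes, grouped by role; points are fitted values and bars are standard errors, with the 5 genes called lower in blue and the 3 called higher in red. CTSK lies farthest to the left at -1.05 and GABARAPL1 farthest to the right at 0.50.

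The calls on GUSB and NPC2 held in each of the 6 fits that left out 1 library, and the other 6 did not. Without siC replicate 1, or without siMSI1 replicate 1, the calls on CTSA, CTSK, MITF, WIPI1, ATG7 and GABARAPL1 were lost, leaving 2 genes called lower and 0 higher. The calls over all genes dropped from 1655 to 528 and to 817 in these fits. There all 6 genes had an adjusted p of at most 0.0454 in limma. MITF and ATG7 lost their call without any 1 of the 6 libraries, CTSK also without siC replicate 2 or 3, CTSA also without siC replicate 3, and WIPI1 also without siC replicate 2 or siMSI1 replicate 2. The direction of all 8 genes was the same in every one of these fits.

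The libraries of a group differed among themselves. Of the 3 siMSI1 libraries, replicate 3 had the highest value of its group for 25 of the 41 genes (61.0%, beside 39.1% of all tested genes), and siC replicate 2 had the lowest value of its group for 27 of them (65.9%, beside 35.2%). The genes had a median GC content of 51.2%, beside 47.8% for all tested genes. Across the 14931 tested genes with a known GC content, a library's deviation from its group mean correlated with GC content at r = 0.02, -0.25 and 0.23 in siC replicates 1 to 3 and at r = -0.13, -0.17 and 0.29 in siMSI1 replicates 1 to 3, a description across genes, which are not independent. With GC content corrected within each library, a choice made after the data were seen, 13 of 41 genes were called lower and 7 higher. The 8 named above were among them. Calls over all 15069 tested genes rose as well, from 1655 to 3156, and were not split by direction here.

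Genes bound by MiT/TFE factors often carry the E-box CACGTG, also in the longer form TCACGTG. Promoter windows from RefSeq on GRCh38.p14, which run from 250 bases before to 50 bases after the RefSeq start of the gene, were found for 35 of the 43 genes. CACGTG, which reads the same on both strands, was present for 7 of these genes (20%), beside 8.77% of all 27305 genes with a window. Each of the 7 also had TCACGTG on one strand or the other, beside 4.49% of all genes with a window. A gene with several windows was counted once, if any of them held the motif. Below are 30 bases of each of these promoters, which show the motif that the 7 genes share, 5′ to 3′ on the strand of the gene, with CACGTG in capitals.
NEU1 (chr6:31862930-31862959, minus strand): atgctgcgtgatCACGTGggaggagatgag
CTSD (chr11:1763957-1763986, minus strand): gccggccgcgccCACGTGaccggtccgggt
LAMP1 (chr13:113297035-113297064, plus strand): accaggccgggtCACGTGggtccagggtca
ATG14 (chr14:55411834-55411863, minus strand): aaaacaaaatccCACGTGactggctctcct
GAA (chr17:80101493-80101522, plus strand): gggaggccgcgtCACGTGacccaccgcggc
MCOLN1 (chr19:7522571-7522600, plus strand): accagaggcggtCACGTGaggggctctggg
CTSA (chr20:45891281-45891310, plus strand): gaggaagactgtCACGTGgcgccggagttc
The first base of CACGTG lay 21 bases upstream of the RefSeq start in ATG14, 41 in MCOLN1, 42 in CTSA, 47 in CTSD, 76 in GAA, 126 in NEU1 and 192 in LAMP1. The RefSeq start can differ from the outermost gene bounds in GENCODE, which are the positions given below, and in CTSA and CTSD the stretch shown lies inside those bounds. Among these 7 genes only CTSA was called, beside 11% of all tested genes. Of the 7, 6 had a log2 fold change below 0 and CTSD one above 0, with a median of -0.30. Of the 41 tested lysosome and autophagy genes, 24 were below 0 and 17 above 0, with a median of -0.11. Over all tested genes 7534 were below 0 and 7535 above 0. Whether genes with the motif changed differently from those without it was not tested. A match of letters is a description and does not show that a factor binds there, and a window without them says nothing about the factor. Among the other 128 lysosome and autophagy genes listed below, 99 had a window. Of these genes, 22 (22.2%) held CACGTG and 20 (20.2%) TCACGTG, and their fold changes were not split by the motif.

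Of the 3 lysosomal membrane proteins, none was called, beside 11% of all tested genes. LAMP1, the abundant glycoprotein of the lysosomal membrane, was at 76.9, 70.9 and 80.3 FPKM with siC and at 56.2, 63.5 and 62.1 FPKM with siMSI1. Its groups did not overlap, but the log2 fold change of -0.33 (SE 0.077) had an adjusted p of 0.019 in limma. LAMP2, its relative with a role in autophagosome fusion and chaperone-mediated autophagy, was at 32.9 to 36.4 FPKM with siC and at 32.8 to 35.3 FPKM with siMSI1. The groups of LAMP2 overlapped over most of their range, with a log2 fold change of -0.01 (SE 0.067, limma, adjusted p = 0.93). MCOLN1, the calcium channel of the lysosomal membrane, overlapped between the groups as well (log2 fold change -0.16, SE 0.13).

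Lysosomal hydrolases and their cofactors held 4 of the 5 genes that fell and none that rose among their 16 tested genes, so that 25% were called lower beside 5.83% of all tested genes. Their median log2 fold change was -0.12, with 9 genes below 0 and 7 above 0. GUSB (ENSG00000169919, chr7:65960684-65982215), the β-glucuronidase that trims glycosaminoglycans, was at 44.5, 41.2 and 45.6 FPKM with siC and at 23.5, 23.5 and 26.0 FPKM with siMSI1. It was 1.79-fold lower in siMSI1 (log2 fold change -0.84, SE 0.073, limma, adjusted p = 0.000429), and the 3 siMSI1 libraries lay close together well below all siC libraries. GUSB has pseudogene copies that could share reads with it. The most abundant of these copies, GUSBP1, had a mean of 1.91 FPKM with siC and 2.30 FPKM with siMSI1 (log2 fold change 0.26, SE 0.12, limma, adjusted p = 0.15).

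NPC2 (ENSG00000119655, chr14:74476192-74494177) is the soluble protein that hands cholesterol to NPC1 in the lysosome. It was at 11.7, 10.4 and 10.6 FPKM with siC and at 6.84, 6.41 and 7.19 FPKM with siMSI1, with 231 to 517 reads per library. This was a 1.59-fold lower level (log2 fold change -0.67, SE 0.082, limma, adjusted p = 0.00135), with every siMSI1 library below every siC library. The membrane protein NPC1, which receives the cholesterol, had a log2 fold change of -0.17 (limma, adjusted p = 0.35). NPC2 overlaps at its 5′ end with ISCA2 on the opposite strand, which had a log2 fold change of -0.04.

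CTSA (ENSG00000064601, chr20:45890144-45898949) encodes cathepsin A, the protective protein that holds β-galactosidase and neuraminidase in a complex. It was at 31.6, 28.3 and 32.2 FPKM with siC and at 18.1, 15.7 and 21.0 FPKM with siMSI1. All siMSI1 libraries were below the siC libraries, and replicate 3 was the highest of them (1.69-fold lower, log2 fold change -0.75, SE 0.11, limma, adjusted p = 0.003). Its partners were not called: β-galactosidase, encoded by GLB1, had a log2 fold change of 0.01 (SE 0.086), and the neuraminidase NEU1 one of -0.30 (SE 0.17), with siMSI1 replicate 3 among the siC values. CTSA overlaps with genes of the opposite strand, and the use of strand in the counting is not stated, so their reads may be shared. Of these, PLTP had a log2 fold change of 0.43 and the antisense gene AL008726.1, with 28 to 77 reads per library, one of -0.63 (limma, adjusted p = 0.039 and 0.057).

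The cathepsin CTSK (ENSG00000143387, chr1:150794880-150809577), a cysteine protease known for cleaving collagen in bone, had the largest change of the 41 genes. It was at 3.04, 2.93 and 3.50 FPKM with siC and at 1.65, 1.13 and 1.70 FPKM with siMSI1. This was a 2.07-fold lower level that rests on 28 to 100 reads per library (log2 fold change -1.05, SE 0.17, limma, adjusted p = 0.00464), without overlap between the groups.

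The other tested cathepsins among the 43 genes were not called. CTSL, an endoprotease of the lysosome, was at 28.7 to 29.9 FPKM with siC and at 24.4 to 26.7 FPKM with siMSI1 (log2 fold change -0.21, SE 0.063). CTSD, the main aspartic protease there, had values of the opposite sign, at 34.4 to 36.9 FPKM with siC and 39.5 to 52.1 FPKM with siMSI1 (log2 fold change 0.33, SE 0.10). For both the groups did not overlap, and the adjusted p in limma was 0.043 and 0.047. For CTSB the groups overlapped (log2 fold change -0.12, SE 0.073).

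PSAP, the precursor of the saposins that help hydrolases to reach their lipids, had the highest level of all 43 genes. It was at 504, 473 and 514 FPKM with siC and at 556, 554 and 632 FPKM with siMSI1. Every siMSI1 library was above every siC library, yet the log2 fold change of 0.22 (SE 0.077) had an adjusted p of 0.07 in limma. The remaining hydrolases and cofactors were not called either. The acid α-glucosidase GAA had a log2 fold change of -0.30 and the β-hexosaminidase subunit HEXA one of -0.12. The 4 above 0 were the α-galactosidase GLA at 0.17, the sphingomyelinase SMPD1 at 0.16, the ceramidase ASAH1 at 0.15 and the progranulin gene GRN at 0.15.

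**Figure D2:**
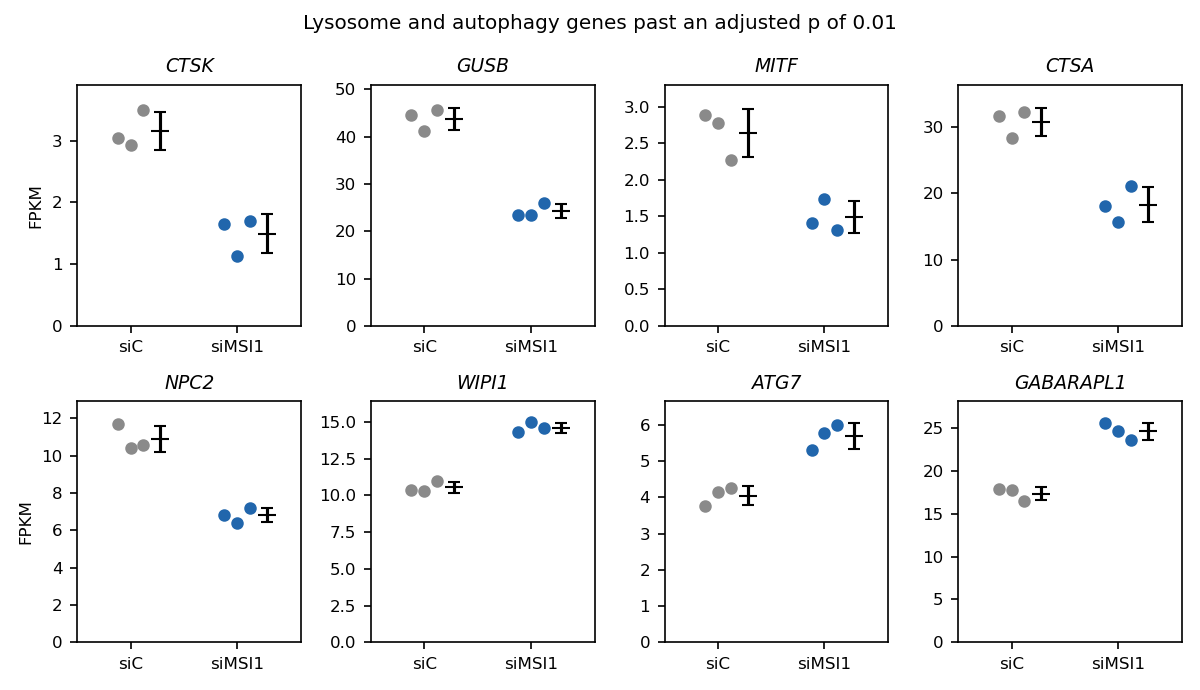
FPKM (vertical axis, from 0) of the 8 called genes in siC (grey) and siMSI1 (blue); each point is 1 library, and the bar beside the points is the mean with the SD of 3 libraries. In none of the 8 genes do the groups overlap. The 5 genes that fell are CTSK, GUSB, MITF and CTSA in the upper row and NPC2 in the lower row.

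The 3 listed MiT/TFE factors had unlike levels and signs. MITF (ENSG00000187098, chr3:69739456-69968336) was at 2.90, 2.77 and 2.27 FPKM with siC and at 1.41, 1.74 and 1.32 FPKM with siMSI1. The groups were separate, with a 1.73-fold lower level in siMSI1 (log2 fold change -0.79, SE 0.15, limma, adjusted p = 0.00929). TFE3 was the most abundant of the 3, at 47.7, 45.5 and 49.3 FPKM with siC and at 58.0, 54.9 and 63.4 FPKM with siMSI1. Its siMSI1 libraries all lay above the siC libraries, with a log2 fold change of 0.30 (SE 0.074) and an adjusted p of 0.021 in limma. TFEB was low at 1.04 to 1.21 FPKM with siC and 1.16 to 1.42 FPKM with siMSI1, with overlapping groups (log2 fold change 0.18, SE 0.16).

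Summed over the 3 factors, the level was 51.3 ± 1.77 FPKM with siC and 61.6 ± 4.18 FPKM with siMSI1 (SD, n = 3). TFE3 made up 92.6% ± 0.755 of this sum in siC and 95.4% ± 0.512 in siMSI1. The share of MITF was 5.17% ± 0.751 in siC and 2.44% ± 0.518 in siMSI1, without overlap, and that of TFEB was 2.22% ± 0.111 and 2.12% ± 0.183. By FPKM, the sum of these 3 factors was thus mainly TFE3 in both groups, and the call concerned a minor part of it.

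In autophagy initiation and nucleation, 1 of 8 tested genes was called, and it rose. This share of 12.5% was near the 11% of all tested genes. WIPI1 (ENSG00000070540, chr17:68420948-68457513), which binds phosphatidylinositol 3-phosphate on the forming membrane, was at 10.3, 10.3 and 10.99 FPKM with siC and at 14.3, 15.0 and 14.6 FPKM with siMSI1. The replicates of each group were close together and the groups far apart, with a 1.38-fold higher level in siMSI1 (log2 fold change 0.47, SE 0.065, limma, adjusted p = 0.00233). ARSG, which overlaps it on the opposite strand, did not pass the filter and reached at most 0.556 FPKM. WIPI2, its relative that recruits ATG16L1, had the opposite sign, at 20.1 to 22.1 FPKM with siC and 17.2 to 19.4 FPKM with siMSI1 (log2 fold change -0.21, SE 0.073, limma, adjusted p = 0.069).

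ATG14, the subunit that directs the Beclin 1 lipid kinase complex to autophagosome formation, had the largest difference of this group of genes. It was at 2.60, 2.97 and 2.78 FPKM with siC and at 1.95, 1.69 and 1.35 FPKM with siMSI1, on 98 to 271 reads per library. The siMSI1 libraries were all lower than the siC libraries. The log2 fold change of -0.72 (SE 0.15) was just outside the threshold in limma, with an adjusted p of 0.012. ATG2A, which transfers lipids into the membrane, had a log2 fold change of -0.43 (SE 0.10) and the kinase ULK1 one of -0.32 (SE 0.098), with adjusted p-values of 0.019 and 0.046 in limma.

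ATG9A, the membrane protein that shuttles vesicles to the forming autophagosome, had the highest mean level of these genes. It was at 26.6, 23.7 and 26.5 FPKM with siC and at 20.5, 19.8 and 23.9 FPKM with siMSI1. The groups overlapped through siMSI1 replicate 3, with a log2 fold change of -0.26 (SE 0.091, limma, adjusted p = 0.074). BECN1 had a log2 fold change of -0.17 (SE 0.097), and RB1CC1, the scaffold of the ULK1 complex, one of 0.07 (SE 0.15). Of the 8 tested genes, 6 were below 0, and their median was -0.23.

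ATG8 conjugation had 5 tested genes, of which 1 was called (20%, beside 11% of all tested genes). ATG7 (ENSG00000197548, chr3:11272309-11557665), the E1-like enzyme that activates both ATG8 proteins and ATG12, was at 3.75, 4.14 and 4.25 FPKM with siC and at 5.29, 5.77 and 5.999 FPKM with siMSI1. All siMSI1 libraries were higher than all siC libraries, with a 1.40-fold higher level (log2 fold change 0.48, SE 0.093, limma, adjusted p = 0.00883). At its 3′ end ATG7 overlaps with VGLL4 on the opposite strand, which had a log2 fold change of 0.32 and was called (limma, adjusted p = 0.0059). The call on VGLL4 held without siMSI1 replicate 3 and was lost without any other 1 library (adjusted p up to 0.0374 in limma), and whether the genes share reads was not tested. ATG12, the ubiquitin-like protein that ATG7 loads, was at 4.12 to 4.40 FPKM with siC and 4.93 to 5.66 FPKM with siMSI1 (log2 fold change 0.32, SE 0.089, limma, adjusted p = 0.036).

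ATG16L1, which places the conjugation complex on the membrane, had the highest mean level of these 5 genes. It was at 12.5, 11.3 and 12.1 FPKM with siC and at 12.6, 13.1 and 12.6 FPKM with siMSI1. The lowest siMSI1 library was only slightly above the highest siC library (log2 fold change 0.10, SE 0.068). ATG5, the partner of ATG12, had a log2 fold change of -0.11 (SE 0.13) and the processing protease ATG4B one of -0.13 (SE 0.094), both with overlapping groups.

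Among the ATG8 family, 1 of 5 genes rose, beside 5.15% of all tested genes called higher, and in lists this small 1 call more or less decides the share. The mean summed level with siC lay within the range of the siMSI1 libraries. GABARAPL1 (ENSG00000139112, chr12:10212458-10223128), an ATG8 protein that binds cargo receptors and fusion factors, was at 17.8, 17.7 and 16.4 FPKM with siC and at 25.5, 24.6 and 23.6 FPKM with siMSI1. It was 1.42-fold higher in siMSI1 with clearly separate groups (log2 fold change 0.50, SE 0.067, limma, adjusted p = 0.00198). The antisense gene AC115676.1 within it had 0 to 9 reads per library. GABARAPL2, the most abundant of the 5, was at 37.8, 41.7 and 40.1 FPKM with siC and at 29.9, 34.6 and 31.9 FPKM with siMSI1, also without overlap (log2 fold change -0.31, SE 0.076, limma, adjusted p = 0.022). The ratio of GABARAPL1 to GABARAPL2, which was not among the planned results, was 0.471, 0.425 and 0.409 in siC and 0.854, 0.712 and 0.738 in siMSI1. As both genes were already separate with opposite signs, this ratio had to separate too and adds no further support.

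The summed FPKM of the 5 ATG8 genes was 110.9 ± 0.129 in siC and 110.5 ± 5.66 in siMSI1 (SD, n = 3). GABARAPL1 contributed 15.6% ± 0.717 of it in siC and 22.3% ± 2.05 in siMSI1, and GABARAPL2 36.0% ± 1.78 and 29.1% ± 1.56. The LC3 genes MAP1LC3A and MAP1LC3B, best known as the marker of autophagosomes, had log2 fold changes of 0.01 (SE 0.12) and -0.06 (SE 0.069), and GABARAP had one of 0.08 (SE 0.093). For each of these 3 genes the groups overlapped. An overlapping transcript of the opposite strand, AC120057.4, had 249 to 394 reads beside the 247 to 304 reads of GABARAP, and whether they share reads was not tested.

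SQSTM1, the receptor p62 that links ubiquitinated cargo to ATG8 proteins, was the most abundant gene of its group. It was at 45.0, 40.2 and 48.3 FPKM with siC and at 40.95, 40.6 and 48.8 FPKM with siMSI1. The 2 groups overlapped over nearly their whole range (log2 fold change -0.04, SE 0.099, limma, adjusted p = 0.83).

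**Figure D3:**
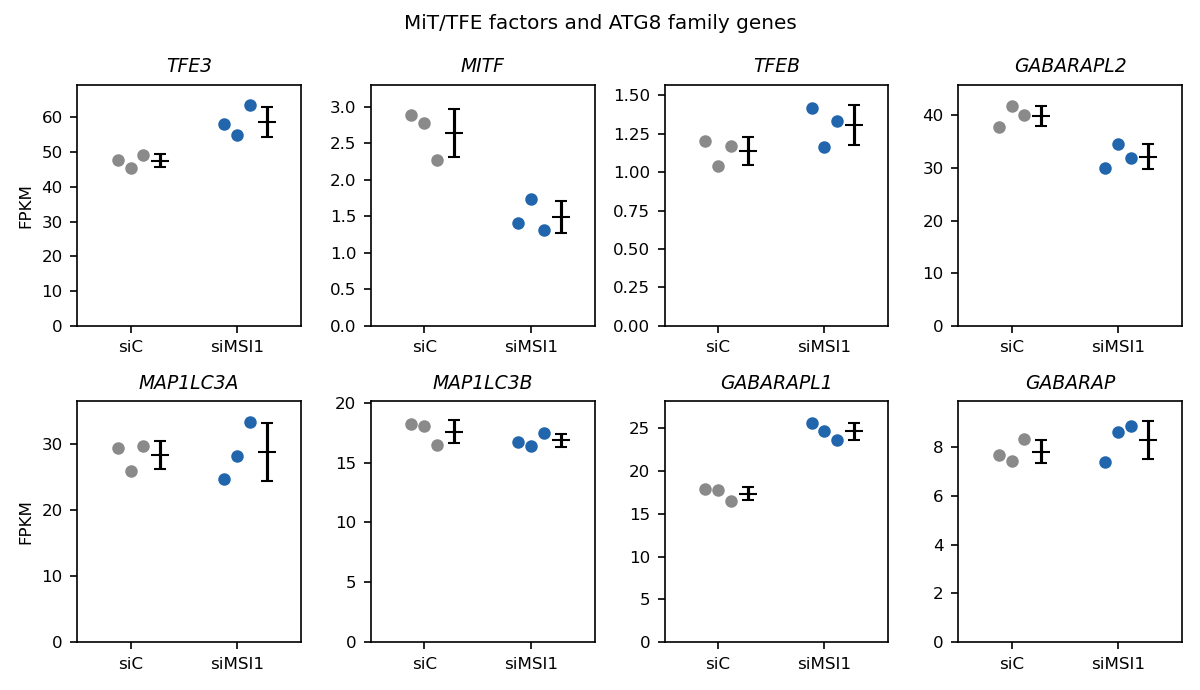
FPKM (vertical axis, from 0) of the 3 MiT/TFE factors and the 5 ATG8 family genes in siC (grey) and siMSI1 (blue); each point is 1 library, and the bar is the mean with the SD of 3 libraries. MITF and GABARAPL2 lie lower and TFE3 and GABARAPL1 higher in siMSI1 without overlap, whereas TFEB, MAP1LC3A, MAP1LC3B and GABARAP overlap.

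To place the 43 genes among the rest of the pathway, 128 other lysosome and autophagy genes were listed by function. Of these, 122 were tested, and 18 (14.8%) were called, 14 lower and 4 higher, beside 11% of all tested genes. Their median log2 fold change was -0.04, with 72 genes below 0 and 50 above 0. Without siC replicate 1, 7 of the 18 calls were left, namely those of CTSF, GM2A, ARSA, TPP1, CTSC, ATP6V0E1 and ATP6AP1, and these 7 held without any 1 library. The number called was 9 without siC replicate 2, 8 without siC replicate 3, 8 without siMSI1 replicate 1, 12 without siMSI1 replicate 2 and 18 without siMSI1 replicate 3.

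Hydrolases outside the 43 genes gave the largest changes of the pathway. Of 28 tested, 7 fell and 2 rose (32.1% called, beside 11% of all tested genes), and the median was -0.02. CTSF, a cysteine cathepsin, was at 19.5, 15.0 and 18.5 FPKM with siC and at 4.38, 4.90 and 5.94 FPKM with siMSI1. That was a 3.44-fold lower level (log2 fold change -1.78, SE 0.14, limma, adjusted p = 0.000325), with all siMSI1 libraries far below the siC libraries. GM2A, the activator that presents ganglioside to β-hexosaminidase, was at 5.58 ± 0.493 FPKM with siC and 2.36 ± 0.207 FPKM with siMSI1 (SD, n = 3), with a log2 fold change of -1.21. ARSA, the sulfatase that degrades sulfatide, was at 9.61 ± 1.44 and 4.32 ± 0.703 FPKM (log2 fold change -1.14).

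Further calls among these hydrolases, named after their values were seen, were smaller. The peptidase TPP1 (-0.72) and the depalmitoylase PPT1 (-0.52) fell on the log2 scale. CTSC, the dipeptidyl peptidase that activates serine proteases, and the sulfatase ARSB rose, by log2 fold changes of 0.63 and 0.55.

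The V-ATPase, the proton pump that acidifies the lysosome, had 4 genes that fell and 1 that rose among 18 tested, with a median of -0.18. The share called was 27.8%, beside 11% of all tested genes. ATP6V0E1, a small subunit of the membrane sector, was at 83.8, 87.2 and 88.4 FPKM with siC and at 52.8, 61.1 and 55.9 FPKM with siMSI1 (log2 fold change -0.61, SE 0.072, limma, adjusted p = 0.00122). Its paralog ATP6V0E2 was at 132 ± 10.3 FPKM with siC and 91.9 ± 11.6 FPKM with siMSI1 (log2 fold change -0.52). In contrast, the accessory subunit ATP6AP1 was at 34.4, 31.1 and 35.4 FPKM with siC and at 51.5, 51.3 and 58.4 FPKM with siMSI1, and none of these groups overlapped (log2 fold change 0.67, SE 0.081, limma, adjusted p = 0.00131). The other 2 calls, named after their values were seen, were the stalk subunits ATP6V1D (-0.46) and ATP6V1E1 (-0.42), which fell on the log2 scale.

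The other lists had shares called of 0% to 8%, below the 11% of all tested genes, though with so few genes a list differs from that share by a small number of calls. Of 15 lysosomal membrane and sorting proteins 1 fell, HGSNAT, the acetyltransferase of heparan sulfate degradation (log2 fold change -0.49). Of 23 further autophagy core genes 1 fell, UVRAG, an alternative partner of Beclin 1 (-0.55). None of 13 further autophagy receptors was called at an adjusted p of at most 0.01 in limma, and the largest difference among them was that of the mitophagy receptor BNIP3 (-0.51, adjusted p = 0.015). Of 25 genes of TORC1 and AMPK control, the Rag GTPase RRAGB fell (-0.55) and the AMPK subunit PRKAB2 rose (0.65). PRKAB2 was at 6.94, 8.28 and 6.09 FPKM with siC and at 11.6, 11.02 and 10.6 FPKM with siMSI1, without overlap.

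**Figure D4:**
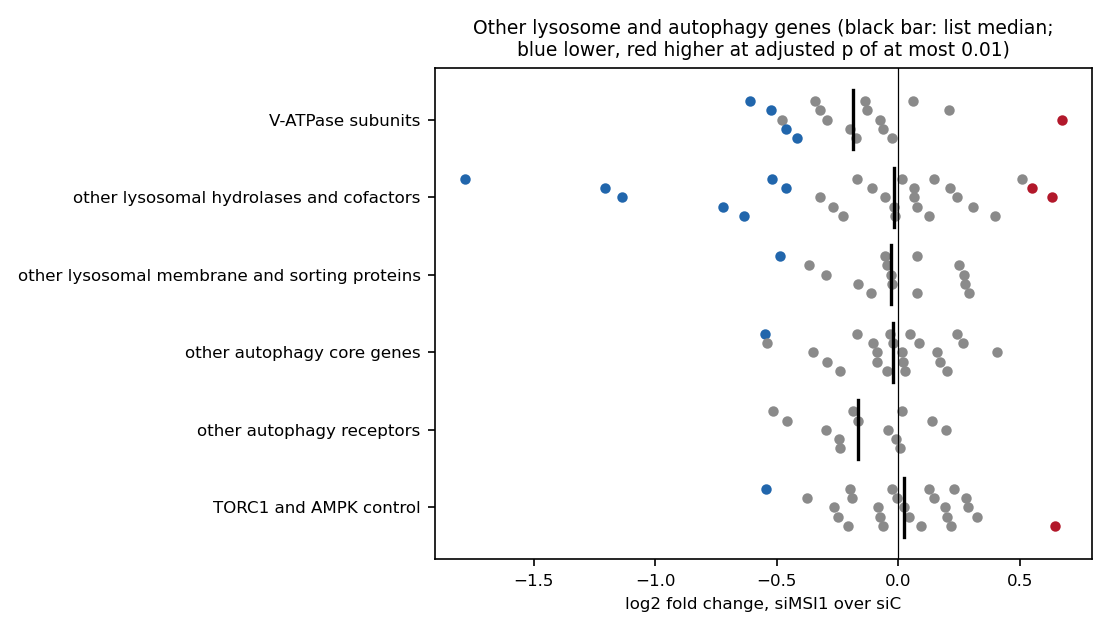
Log2 fold change of siMSI1 over siC (horizontal axis) for the 122 tested lysosome and autophagy genes outside the 43, 1 row per list; each point is a gene, blue if called lower and red if called higher, and black bars mark list medians. The row of other hydrolases spreads from -1.78 for CTSF to 0.63 for CTSC, while no receptor is called.

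Markers were used to check the cells against their label. Of 10 glioma and neural progenitor markers, 8 were tested, and OLIG2 and S100B had 0 reads in all 6 libraries. The most abundant, VIM, was at 996.3 to 1056 FPKM with siC and 824 to 937 FPKM with siMSI1, and SOX2 at 296 to 305 and 243 to 279 FPKM. Among them MSI1 itself, FABP7, SOX9 and CD44 fell (log2 fold changes -2.43, -1.12, -0.61 and -0.46) and the astrocyte filament gene GFAP rose (1.46), so the cells of the 2 groups differed in such markers too. These 5 calls are 62.5% of the 8 tested markers, beside 11% of all tested genes, and 1 of them is the siRNA target. Of these 5 calls, that of CD44 was lost in 5 of the 6 fits that left out 1 library, all but the one without siMSI1 replicate 3 (limma, adjusted p of at most 0.0229), and the other 4 held in all 6. The list summed to 1573 to 1639 FPKM with siC and to 1254 to 1354 FPKM with siMSI1. In bulk RNA, fewer cells that express a gene and less RNA per cell cannot be told apart.

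Macrophages and microglia, which are rich in lysosomes, left little trace in the libraries. None of their 8 markers passed the filter, AIF1 and P2RY12 had 0 reads in all libraries, and the list summed to 0.209 to 0.636 FPKM with siC and 0.409 to 0.776 FPKM with siMSI1. The most abundant of them, CD68, itself a lysosomal protein, reached 0.509 FPKM on at most 16 reads. Of 6 tested interferon response genes, which can react to siRNA, OAS1 rose from 0.806 ± 0.109 to 1.62 ± 0.181 FPKM (SD, n = 3) and the other 5 were not called (16.7%, beside 11% of all tested genes), with a summed level of the whole list of 34.1 to 36.3 FPKM with siC and 30.7 to 37.2 FPKM with siMSI1. The call on OAS1 was lost without any 1 of the 6 libraries (limma, adjusted p 0.0177 to 0.031). The part of these differences in the changes of lysosome and autophagy genes was not tested.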

How the data were processed

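The mRNA-seq of KNS42 cells (3 siC and 3 siMSI1 libraries, grouped by their labels) was used. Per the labels, libraries were strand-specific. The submitters' processing notes name cutadapt 1.14, HISAT2 2.1.0, SAMtools 1.5, featureCounts 1.5.3 and edgeR 3.18.1, and the authors used GRCh38 with Ensembl release 89. The deposited FPKM of each gene and library were used as they are. The deposited log2 fold changes, p-values and false discovery rates of the authors' own comparison and a gene length column are in the same table; of these only the length was used. No column of values per library was left out.

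FPKM times length gave whole reads for 100% of the values above 0 (tolerance 0.01). A floor of 3 reads was 0.0829 to 0.114 FPKM for a gene of 2 kb, which covers counting error only. No pair of libraries of a group was a duplicate (chi-square per degree of freedom of 3.74 or more).

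limma 3.58.1 (R 4.3.3; lmFit, eBayes with trend and robust) was fitted to log2(FPKM + 0.1) for the 15069 genes that averaged 0.5 FPKM or more, without a block, with p-values adjusted over all of them (Benjamini-Hochberg), with a threshold of 0.01. This script was tested on simulated data. Lists were described by counts and medians, with no list test. Values in every library were given for called genes and, per role, for the gene with the largest change and the one with the highest mean; from each further list, up to 3 called genes with the largest change and a mean FPKM of at least 1 were named. The genes and lists were chosen with earlier results of these data known. Some genes of the further lists are counted but not reported by name here. In all, 17 other settings and 1 more, added after the data were seen, were run, among them voom on recovered reads. Gene positions and GC content are from GENCODE release 44 on GRCh38, and promoter sequences from RefSeq on GRCh38.p14. A comparison of ATG8 protein sequences was planned and not run; protein sequences were not used here. Python 3.11.15 with numpy 2.4.6, pandas 2.3.3 and matplotlib 3.10.9 was used for summaries and plots.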

Additional observations from a re-analysis of the deposited data

How the results depend on the processing

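The number of all genes called (1655) was 792 without a filter on low genes, 847 without trend and robust, 2815 with voom on recovered reads, 4974 with voom and the replicate block, 3156 with the GC correction and 3787 at an adjusted p of 0.05. In the same order, 2, 2, 9, 14, 13 and 11 of the 43 lysosome and autophagy genes were called lower (main 5). Voom with the block, the GC correction and the 0.05 threshold gave 7, 7 and 6 genes called higher (main 3). Of the other 128 genes, 9, 10, 30, 54, 34 and 39 were called (main 18). Each of these counts moved from its main value in the same direction as the calls over all genes. Leaving out 1 library gave 528 to 1603 calls in all, 2 to 5 of the 43 genes lower and 0 to 2 higher, 7 to 18 of the other genes, and medians of -0.116 to -0.039. Without the filter, and without trend and robust, CTSA, CTSK, MITF and ATG7 lost their calls; the cause was not tested. Among the 41 tested genes of the 43, the direction turned for 6 genes near 0, and none of them was called there. Leaving out 1 library gave log2 fold changes of -0.043 to 0.030 for LAMP2, -0.063 to 0.060 for GLB1, -0.029 to 0.21 for RB1CC1, -0.19 to 0.029 for ATG5, -0.10 to 0.12 for MAP1LC3A and -0.12 to 0.025 for SQSTM1. LAMP2 was at 0.0021 with median centring and 0.012 with the GC correction, GLB1 at -0.014 with quantile normalization and -0.016 with the GC correction, and MAP1LC3A at -0.013 with quantile normalization. Replicate numbers follow the labels, while the study's own table numbers the libraries of each group differently. They are shared by siC and siMSI1, but the deviations of same-numbered libraries correlated at -0.07, 0.08 and 0.08, so the numbers were not taken as pairs. With the replicate block 2250 genes were called, 6 of the 43 lower and 4 higher, and 29 of the other genes. Low counts may limit the precision for CTSK (28 to 100 reads per library), TFEB (86 to 118), NEU1 (112 to 202) and ATG14 (98 to 271), among others. Their part in the standard errors was not tested.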
